A study of Mus musculus with 3 samples.

Results

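The 35 genes described here are imprinted genes, and they were measured by single-cell RNA sequencing in cells of the mouse otic vesicle, the epithelial pouch that forms the inner ear, at embryonic day E10.5. They are 35 of the 32285 features of the count matrices and were taken as a named list. By textbook knowledge 10 are expressed mainly from the maternal allele, 19 mainly from the paternal allele and 6 in a way that depends on tissue or transcript. The CD group is 1 library from embryos heterozygous for the Sox9 mutation that the labels write as Sox9Y440X/+, and the WT group is 2 libraries from wild-type embryos. Each library came from pooled vesicles, and the number of embryos, their sex and their strain are not given in the sources used here. With 1 CD library, the genotype cannot be told apart from the pool. The labels do not state that both WT pools came from different litters, and p-values therefore cover only the spread between the libraries at hand, which may be technical. No Cre or transgene is named in the labels.

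An imprinted gene is one whose maternal and paternal copies carry different DNA methylation set in the germ cells, so that one copy is expressed and the other is largely silent. Imprinted genes lie in clusters that share a control region, and many act on growth: Igf2 encodes a growth factor, Igf2r a receptor that removes it, Grb10 an adaptor that dampens insulin and IGF signalling, and Cdkn1c an inhibitor of cyclin-dependent kinases. The reads count 3' ends of transcripts and do not separate the alleles, so the values below are levels summed over both copies and say nothing of imprinting itself.

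The members include host transcripts of microRNAs. In the RefSeq tables (build GRCm38.p6) the bodies of Mirg, Rian, Meg3, Mest, Usp29, H19 and Igf2 hold microRNA hairpins, 10 of them in Mirg and 3 in Rian. The mature microRNAs of H19 and Mest are printed because these host transcripts were among those with the largest differences between cell classes. Igf2 differed more, by 34.2-fold against 19.7-fold for Mest and 15.1-fold for H19, and its microRNAs are not printed. The capitals mark the seed, bases 2 to 8, and no seed is shared between the 4. The microRNAs themselves were not measured.
mmu-miR-675-5p (in H19, chr7:142577112-142577133, minus strand): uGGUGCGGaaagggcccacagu
mmu-miR-675-3p (in H19, chr7:142577078-142577099, minus strand): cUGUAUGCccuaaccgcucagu
mmu-miR-335-5p (in Mest, chr6:30741314-30741336, plus strand): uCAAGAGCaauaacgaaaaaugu
mmu-miR-335-3p (in Mest, chr6:30741354-30741375, plus strand): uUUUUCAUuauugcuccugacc

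The 250 bases before the annotated start were printed for 5 members described below, Plagl1 and Asb4, which differed most between classes, and Dlk1, Meg3 and Nnat, which differed between parts of the otic epithelium. Dcn differed more there than Meg3 or Nnat and is not printed. The capitals mark each CG, the dinucleotide at which DNA methylation is set. All 5 genes lie on the plus strand, and the sequences are from RefSeq, build GRCm38.p6, which is not the build of the count matrices.
Plagl1 (chr10:13090582-13090831, 19 CG): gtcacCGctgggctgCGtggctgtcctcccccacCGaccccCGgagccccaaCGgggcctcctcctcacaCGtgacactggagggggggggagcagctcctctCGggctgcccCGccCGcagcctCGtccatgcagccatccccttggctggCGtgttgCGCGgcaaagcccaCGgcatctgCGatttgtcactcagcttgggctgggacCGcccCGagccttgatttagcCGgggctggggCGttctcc
Asb4 (chr6:5383136-5383385, 4 CG): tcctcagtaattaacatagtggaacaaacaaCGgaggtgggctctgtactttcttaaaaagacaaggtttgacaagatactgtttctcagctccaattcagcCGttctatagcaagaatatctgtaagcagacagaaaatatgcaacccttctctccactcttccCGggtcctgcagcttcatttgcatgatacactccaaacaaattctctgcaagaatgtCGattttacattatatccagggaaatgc
Dlk1 (chr12:109452573-109452822, 8 CG): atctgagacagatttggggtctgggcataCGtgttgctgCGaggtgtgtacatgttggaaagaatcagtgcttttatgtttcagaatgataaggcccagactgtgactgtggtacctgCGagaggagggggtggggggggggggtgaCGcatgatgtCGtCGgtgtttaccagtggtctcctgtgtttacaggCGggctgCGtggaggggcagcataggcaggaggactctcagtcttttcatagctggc
Meg3 (chr12:109540746-109540995, 10 CG): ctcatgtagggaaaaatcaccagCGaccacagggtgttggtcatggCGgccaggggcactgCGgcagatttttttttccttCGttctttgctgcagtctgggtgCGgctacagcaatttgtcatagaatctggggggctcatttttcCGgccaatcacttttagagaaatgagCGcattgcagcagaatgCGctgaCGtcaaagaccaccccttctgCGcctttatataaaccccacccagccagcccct
Nnat (chr2:157559828-157560077, 12 CG): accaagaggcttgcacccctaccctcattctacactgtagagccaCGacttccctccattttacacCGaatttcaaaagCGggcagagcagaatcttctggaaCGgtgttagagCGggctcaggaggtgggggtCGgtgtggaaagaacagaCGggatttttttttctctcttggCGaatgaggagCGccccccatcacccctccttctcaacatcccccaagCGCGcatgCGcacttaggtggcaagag
Windows were found for 27 of the 35 members. The median member window held 8 CG (range 0 to 40), against 6 (range 0 to 56) over the windows of all 27025 genes. The motif TATAAA, searched on both strands, stood in 6 member windows (22.2%) and in 12.98% of all windows, and GGGGCCCC, also on both strands, in 1 member window (3.7%) and in 0.884% of all. A match describes letters only.

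The libraries held 157373393 to 202584468 UMIs, where a UMI is 1 captured transcript molecule, and after the cell filters and removal of called doublets 8113 cells were left in CD replicate 1, 6307 in WT replicate 1 and 10334 in WT replicate 2. Values given as triplets below follow this order. Pairs of libraries shared 28 to 55 cell barcodes. Cells were gated by UMIs of Epcam with Fbxo2, Hmx2, Hmx3 and Pax2 (otic epithelium), Prrx1 with Twist1 (mesenchyme), Neurod1 with Stmn2 (neurons) and Cdh5 with Pecam1 (endothelium). This gave 2632, 2425 and 3839 otic cells, 1699, 1025 and 2215 mesenchymal cells, 707, 525 and 773 neurons and 176, 201 and 193 endothelial cells. Each level is in CPM, the UMIs of a gene in a library and class scaled to that sum's adjusted total. Summed levels of markers not used for gating followed the gates, but not every single marker did. The highest otic marker reached 67.0% of its otic level in neurons and 63.7% in endothelium. The highest mesenchymal marker reached 67.5% of its mesenchymal level in endothelium. The summed otic markers stood at 4.63% to 6.16% of their otic level in the other classes. The summed level of 9 endothelial markers was 3722 to 3971 CPM in endothelium and 18.1 to 25.5 in otic cells. The 8 mesenchymal markers summed to 1020 to 1291 CPM in mesenchyme and 21.4 to 60.4 in otic cells, and the 9 neuronal markers to 4585 to 5087 CPM in neurons and 164 to 224 in otic cells. The 8 otic markers summed to 416 CPM in the CD otic cells against 846 and 1296 in WT, with Oc90, an otoconial protein gene, at 76.7, 491 and 949. Erythroid genes were present in every class, at 11240 to 32850 CPM in neurons and 936 to 3243 in otic cells, and none of the 9 was at 0.

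Across the 4 classes the imprinted genes were not a uniform block, and all 35 passed the filter on low counts in the joint fit of the classes. The members' CPM summed to 8245, 8837 and 8434 in endothelium, 6401, 6750 and 6174 in mesenchyme, 5150, 5626 and 5654 in otic epithelium and 4474, 4825 and 4318 in neurons, so the classes did not overlap in this sum. Abundant members weigh most in it, in endothelium Gnas, Mest and H19 with means of 2399, 1656 and 1072 CPM. By mean level 14 members were highest in endothelium, where 29.4% of the 15135 tested genes had their highest class. Neurons were highest for 8 members (26.3% of all genes), mesenchyme for 7 (19.3%) and otic epithelium for 6 (24.9%). For 12 members every endothelial library lay above every library of the other classes, against 17.1% of all genes. The folds between the highest and the lowest class reached 288-fold for Asb4 and 133.7-fold for Plagl1. They were 34.2-fold for both Igf2 and Dlk1, 24.0-fold for Nnat and 19.7-fold for Mest. The long noncoding RNA Kcnq1ot1 varied least, by 1.51-fold, and Sgce, Ndn, Ube3a and Cdkn1c varied by 1.58-, 1.62-, 1.65- and 1.73-fold.

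**Figure D1:**
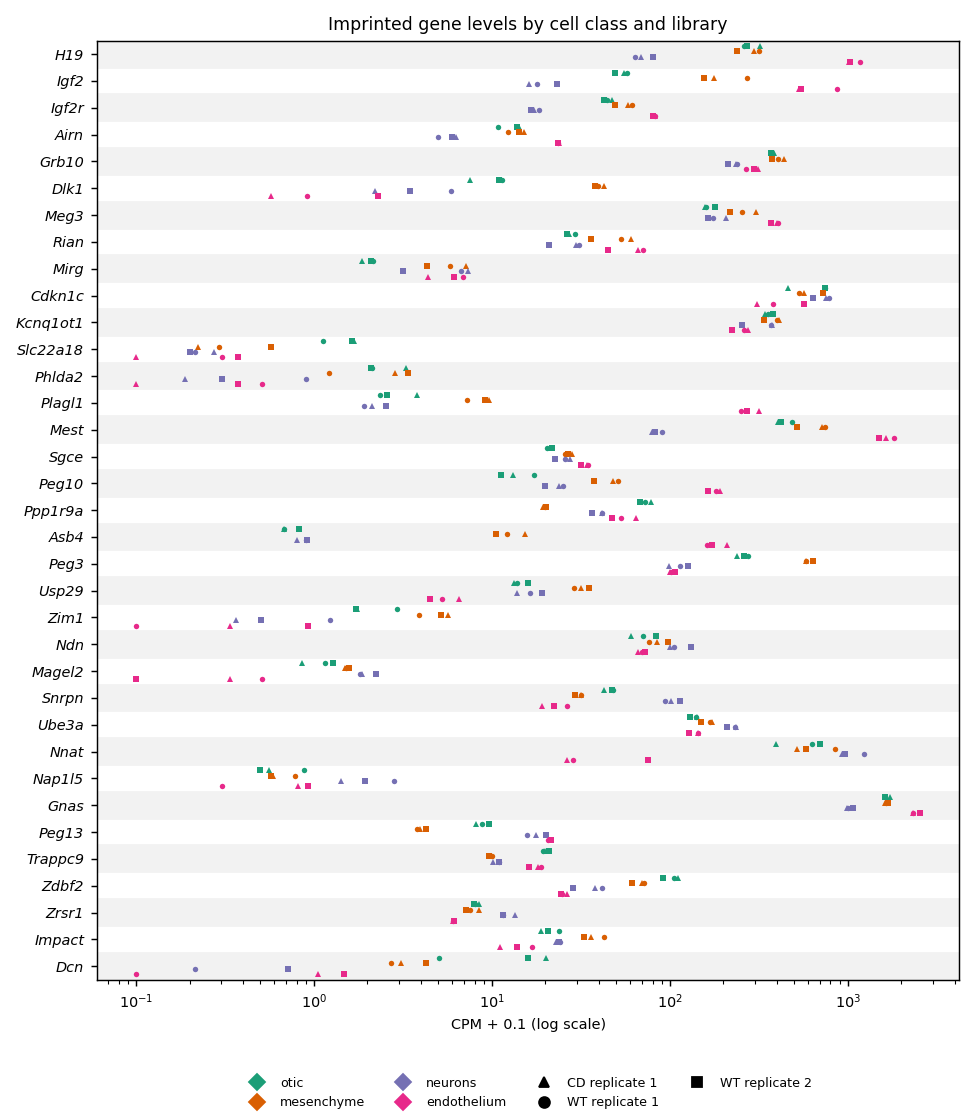
Level of each of the 35 imprinted genes in the 4 gated cell classes, by library. Asb4 and Plagl1 stand far higher in endothelium than elsewhere, while Kcnq1ot1 and Sgce, at 1.51- and 1.58-fold between the highest and the lowest class, vary little.

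The growth factor Igf2 and its neighbour H19, a noncoding RNA that shares its control region, were highest in endothelium. Igf2 stood at 529, 876 and 546 CPM there, at 176, 271 and 155 in mesenchyme, at 55.5, 57.5 and 49.3 in otic epithelium and at 16.1, 17.9 and 23.1 in neurons. The 4 classes did not overlap in any library. The log2 fold change to otic epithelium was 3.55 ± 0.16 (SE) in endothelium, 1.85 ± 0.15 in mesenchyme and -1.51 ± 0.18 in neurons (edgeR adjusted p of 1.46e-09, 4.29e-07 and 1.36e-05). H19 stood at 1020, 1169 and 1028 CPM in endothelium and at 68.6, 63.9 and 80.5 in neurons. In mesenchyme it was at 297, 318 and 239 CPM and in otic epithelium at 320, 263 and 273. These last ranges overlapped, and with means of 284.9 and 285.1 CPM the contrast did not pass for H19 (adjusted p 0.978), while it did for Igf2.

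The direction of Igf2 in neurons rested on which cells were kept. Cells that met more than 1 class gate, and called doublets, made up 19.3%, 13.7% and 29.2% of the cells inside the neuron gate and held 83.0%, 90.1% and 86.1% of its Igf2 UMIs. With these cells left in, Igf2 was higher in neurons than in otic epithelium, by a log2 fold change of 0.75 in place of -1.51. The same choice changed other calls. In neurons the members called went from 11 higher and 16 lower to 15 higher and 13 lower, and Cdkn1c lost its call in endothelium. The members listed next moved but kept their direction and call. In neurons H19 went from -2.001 to -0.538, Mest from -2.38 to -0.61, Igf2r from -1.37 to -0.73, Airn from -1.19 to -0.59 and Peg3 from -1.20 to -0.45. In endothelium Nnat went from -3.76 to -1.91, Asb4 from 8.14 to 6.40 and Plagl1 from 6.65 to 5.78, and in mesenchyme Asb4 went from 4.29 to 2.98. The SE values given with these contrasts do not cover that choice. Of the cells in the neuron gate, 127, 40 and 261 also met the mesenchyme gate and 39, 39 and 52 the endothelium gate.

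The receptor gene Igf2r and the antisense noncoding RNA Airn, which overlaps it, followed the same order. Igf2r was at 82.6, 82.1 and 80.9 CPM in endothelium, 58.5, 61.0 and 49.0 in mesenchyme, 47.1, 44.4 and 42.4 in otic epithelium and 17.1, 18.3 and 16.5 in neurons. Its log2 fold change to otic epithelium was 0.87 ± 0.07 in endothelium and -1.37 ± 0.07 in neurons. Airn moved by 0.88 ± 0.10 and -1.19 ± 0.10 in the same contrasts. How the counting used strand is not given in the sources used here, so whether it separated reads of this pair is not known. Grb10 was at 371 to 386 CPM in otic epithelium and at 211 to 238 in neurons, a log2 fold change of -0.72 ± 0.06. The transcription factor gene Plagl1 was the most uneven of the growth regulators. It stood at 317, 251 and 273 CPM in endothelium and at no more than 9.49 in any library of another class, a log2 fold change of 6.65 ± 0.10 to otic epithelium (adjusted p 2.68e-13). After thinning each cell to 5000 UMIs, Plagl1 was detected in 69.7%, 62.3% and 66.1% of endothelial cells and in 1.89%, 1.33% and 1.56% of otic cells. In neurons, the class of lowest level, 0.504%, 1.14% and 1.06% of cells had a UMI. Without thinning the endothelial shares were 93.8%, 92.5% and 87.0% and the otic shares 6.84%, 5.07% and 4.38%. Endothelial and otic cells had median depths of 16989 to 21212 and 18163 to 24648 UMIs, and thinning left out 1 to 7 endothelial and 20 to 111 otic cells a library.

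Asb4, which encodes an ankyrin repeat protein of ubiquitin ligases, lies in a cluster with Peg10, Sgce and Ppp1r9a, and these 4 neighbours differed in their class pattern. Asb4 was at 208, 162 and 173 CPM in endothelium, 15.3, 12.1 and 10.49 in mesenchyme and at 0.581 to 0.814 in every otic and neuronal library. Its log2 fold change to otic epithelium was 8.14 ± 0.12 in endothelium (adjusted p 2.94e-13) and 4.29 ± 0.13 in mesenchyme. Thinned to 5000 UMIs, 52.0%, 46.7% and 50.0% of endothelial cells and 0.386%, 0.457% and 0.349% of otic cells had an Asb4 UMI. Unthinned, these shares were 90.3%, 79.6% and 78.2% against 1.60%, 1.69% and 1.56%. Peg10, a gene derived from a retrotransposon, was at 191, 183 and 163 CPM in endothelium, 48.1, 51.1 and 37.4 in mesenchyme, 23.6, 25.1 and 19.8 in neurons and 13.04, 17.1 and 11.2 in otic epithelium. These classes did not overlap, and Peg10 was higher than in otic epithelium by 3.71 ± 0.08, 1.73 ± 0.08 and 0.74 ± 0.09 on the log2 scale. Sgce, which encodes a sarcoglycan, shares its promoter region with Peg10 and moved far less, by 0.66 ± 0.08, 0.34 ± 0.07 and 0.25 ± 0.07, the last a call lost in 4 of 12 alternatives. Ppp1r9a, which encodes the actin-binding protein neurabin, ran the other way. It was at 78.6, 72.9 and 67.7 CPM in otic epithelium and at 19.3, 19.7 and 20.0 in mesenchyme, a log2 fold change of -1.89 ± 0.07.

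Mest, which encodes a hydrolase-like protein and hosts the miR-335 pair printed above, was at 1644, 1822 and 1503 CPM in endothelium, 715, 748 and 521 in mesenchyme, 403, 485 and 422 in otic epithelium and 79.4, 90.6 and 82.1 in neurons. The 4 classes kept apart, and the log2 fold change to otic epithelium was 1.92 ± 0.08 in endothelium, 0.59 ± 0.08 in mesenchyme and -2.38 ± 0.09 in neurons. Mesenchymal markers in otic cells summed to 3.04% of their level in mesenchyme, and endothelial markers to 0.540% of their level in endothelium. Single markers reached 4.87% and 2.29% in the same terms. The otic mean of Mest was 26.4% of its endothelial mean, and that of Igf2 was 8.32%. The part of transcripts from other classes in these otic levels was not tested.

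The cluster of Dlk1 with the noncoding RNAs Meg3, Rian and Mirg did not act as 1 unit. Dlk1 encodes a transmembrane relative of the Notch ligands and is expressed from the paternal copy, the others from the maternal one. It was highest in mesenchyme, at 42.3, 39.2 and 37.9 CPM, against 7.48, 11.2 and 10.8 in otic epithelium, 2.11, 5.81 and 3.36 in neurons and 0.477, 0.819 and 2.19 in endothelium. The log2 fold change to otic epithelium was 2.04 ± 0.17 in mesenchyme and -3.15 ± 0.45 in endothelium. Meg3 was highest in endothelium, at 401, 405 and 369 CPM. It stood at 305, 256 and 219 CPM in mesenchyme, 207, 175 and 163 in neurons and 158, 160 and 179 in otic epithelium. Neurons and otic epithelium overlapped for Meg3, and the contrast between them did not pass (0.12 ± 0.10, adjusted p 0.281). Rian was higher than in otic epithelium by 1.11 ± 0.12 in endothelium and 0.82 ± 0.10 in mesenchyme. Mirg, at 1.76 to 2.04 CPM in otic epithelium, was higher by 1.52 ± 0.23 in mesenchyme and 1.54 ± 0.30 in endothelium.

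Cdkn1c, the cell cycle inhibitor, was among the more even members, at 753, 788 and 636 CPM in neurons, 569, 536 and 723 in mesenchyme, 460, 749 and 746 in otic epithelium and 308, 378 and 569 in endothelium. Neurons overlapped mesenchyme and otic epithelium, and neither neurons (0.20 ± 0.17, adjusted p 0.34) nor mesenchyme (-0.08 ± 0.17, adjusted p 0.71) passed against otic epithelium. The endothelial contrast did (-0.65 ± 0.18, adjusted p 0.00632), but not without WT replicate 1 (-0.47) or with multi-gate cells and doublets left in (-0.25). The adjusted p of that contrast ran from 4.97e-05 to 0.141 over its alternatives. Kcnq1ot1, a noncoding RNA that silences this cluster on the paternal copy and overlaps Kcnq1, was at 344, 355 and 378 CPM in otic epithelium and 275, 261 and 225 in endothelium (-0.51 ± 0.10). Of the other neighbours, Phlda2, which encodes a pleckstrin homology protein that restrains placental growth, and the transporter gene Slc22a18 were at most 3.27 and 1.59 CPM in any class.

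Neurons were the highest class of 8 members, among them Nnat, Snrpn, Ndn, Magel2 and Ube3a. Nnat encodes neuronatin, a small membrane protein, and was at 928, 1238 and 965 CPM in neurons, 520, 846 and 586 in mesenchyme, 395, 631 and 696 in otic epithelium and 26.5, 28.5 and 75.4 in endothelium. It was higher in neurons than in otic epithelium by 0.90 ± 0.22, a call lost without CD replicate 1 (0.73), and lower in endothelium by a log2 fold change of -3.76 ± 0.27. Snrpn, a splicing protein gene of the Prader-Willi cluster, was at 101.5, 93.5 and 113.5 CPM in neurons and 42.3, 48.1 and 47.0 in otic epithelium (1.17 ± 0.08). Ube3a, a ubiquitin ligase gene of the same cluster, was at 237, 233 and 210 against 142, 140 and 130 CPM (0.72 ± 0.04), and Ndn, which encodes the growth suppressor necdin, at 100.2, 105 and 131 against 60.5, 71.1 and 83.6 CPM (0.65 ± 0.07). The libraries of neurons and otic epithelium did not overlap for these 3 genes. Zrsr1, a splicing factor gene inside Commd1, was higher in neurons by 0.58 ± 0.09, a call lost with thinning (adjusted p from 1.32e-06 to 0.0588 over its alternatives). Reads of Zrsr1 and Commd1, and of Snrpn and its overlapping reading frame Snurf, may be split by the counting. Nap1l5 (1.84 ± 0.33) and Magel2 (0.91 ± 0.27) were also higher in neurons, and at no more than 2.73 CPM in any library both rest on few UMIs.

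Peg3 and Usp29, neighbours that encode a zinc finger protein and a deubiquitinase, were highest in mesenchyme. Peg3 was at 582, 582 and 640 CPM there and at 238, 276 and 263 in otic epithelium (1.22 ± 0.06), while neurons (-1.20 ± 0.06) and endothelium (-1.33 ± 0.06) were lower than otic epithelium. Usp29 moved by 1.16 ± 0.09 in mesenchyme and -1.41 ± 0.16 in endothelium. Their neighbour Zim1, at no more than 5.60 CPM, was higher in mesenchyme by 1.30 ± 0.30. Impact, which encodes a regulator of translation control, was higher in mesenchyme by 0.83 ± 0.08. Zdbf2, which encodes a zinc finger protein, was highest in otic epithelium, at 111, 106 and 91.1 CPM. It was lower by -0.61 ± 0.06 in mesenchyme, -1.52 ± 0.07 in neurons and -2.03 ± 0.08 in endothelium. The proteoglycan gene Dcn was also highest in otic epithelium, yet at 20.1, 4.96 and 15.8 CPM its own libraries spread widely. Peg13 and Trappc9 overlap on the genome, and reads of shared sequence may be split by the counting. Their counts ran in opposite directions in neurons and were both lower in mesenchyme. Peg13, a noncoding RNA, was higher in neurons (1.02 ± 0.09) and endothelium (1.27 ± 0.10) and lower in mesenchyme (-1.17 ± 0.10) than in otic epithelium. Trappc9, a gene of vesicle trafficking, was lower in mesenchyme (-1.04 ± 0.08) and neurons (-0.93 ± 0.09). Gnas, the gene of the stimulatory G protein alpha subunit, was at 2315 to 2556 CPM in endothelium, 1613 to 1724 in otic epithelium and 996 to 1070 in neurons. It did not pass between mesenchyme and otic epithelium (means of 1654 and 1655 CPM, adjusted p 0.983).

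**Figure D2:**
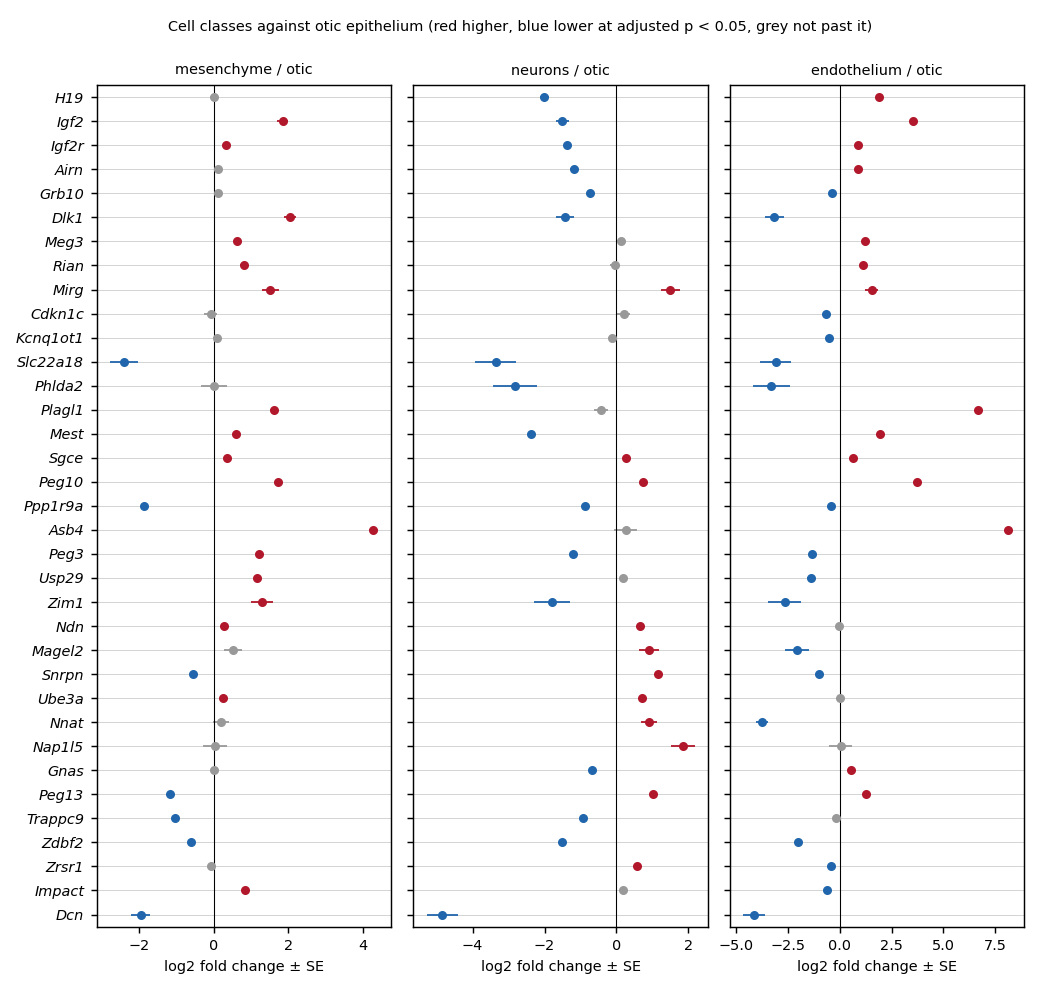
Log2 fold change of each imprinted gene in mesenchyme, neurons and endothelium against otic epithelium of the same libraries. Values run from -4.84 for Dcn in neurons to 8.14 for Asb4 in endothelium, and Nnat, Peg3 and Dlk1 change sign between classes.

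By count, 17 members were higher and 7 lower in mesenchyme than in otic epithelium at an adjusted p under 0.05, in a contrast that called 63% of all tested genes. Of all genes, 30.8% were higher and 32.2% lower there. In neurons 11 members were higher and 16 lower, beside 64.9% of all genes called, 30.3% higher and 34.7% lower. With multi-gate cells and doublets left in, 15 were higher and 13 lower there. In endothelium 14 were higher and 17 lower, beside 69.1% of all genes, 31.5% higher and 37.6% lower. Against mesenchyme, endothelium had 14 higher and 16 lower, beside 58.9% of all genes, 27.8% higher and 31% lower. The share of members called in mesenchyme lay near that of all genes, and the shares in neurons and endothelium lay above it. All genes were not matched to the members for level, and the part of level in these shares was not tested. In each class 24 or 25 members had a mean of at least 10 CPM. The median log2 fold change of the members was 0.25 in mesenchyme, -0.13 in neurons and -0.17 in endothelium, beside -0.01, -0.05 and -0.11 over all tested genes. With library totals in place of TMM scaling, the higher share of all calls fell from 48.8% to 31.7% in mesenchyme, from 46.6% to 34.6% in neurons and from 45.6% to 29.9% in endothelium, since the median of all genes shifted by -0.16, -0.14 and -0.28. The members then split 16 to 9, 10 to 18 and 14 to 20. Split by expressed allele, mesenchyme had 6 higher and 1 lower of 10 maternal members and 10 and 3 of 19 paternal ones. Neurons had 1 higher and 5 lower maternal against 9 and 6 paternal members, and endothelium 6 and 4 against 7 and 10. The difference between the allele groups was not tested. Erythroid markers were higher than in otic epithelium in mesenchyme (8 of 9) and neurons (9 of 9), and macrophage markers in neurons (4 of 6) and endothelium (6 of 6), and their part in the members' values was not tested.

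Other genes of these pathways, taken from lists, are given beside the shares of all tested genes called in the same contrasts. Of all genes 30.8% were higher and 32.2% lower in mesenchyme, and 30.3% and 34.7% in neurons. In endothelium these shares were 31.5% and 37.6%. Whether the lists differ from all genes was not tested. Of 28 tested imprinted genes outside the 35, 12 were higher and 9 lower in mesenchyme, 10 and 11 in neurons and 14 and 9 in endothelium than in otic epithelium. Among them Pon2, a paraoxonase gene, was higher in endothelium by 4.26 and Rasgrf1, a Ras exchange factor gene, was lower in mesenchyme by a log2 fold change of -5.45. Of 17 tested factors that keep or remove methylation at imprints, 13 were lower and 3 higher in neurons, with the DNA methyltransferase gene Dnmt3b at -1.95 and the oxidase gene Tet1 at -1.13. In endothelium 10 of the 17 were lower and 4 higher, and in mesenchyme 6 and 8. Of the 13 IGF pathway genes that are not members, 8 were lower and 4 higher in endothelium, including the binding protein genes Igfbp5 (-4.28) and Igfbp3 (4.13). In mesenchyme 4 were lower and 6 higher, with Igf1, the sister ligand of Igf2, at 4.93. In neurons 5 were lower and 4 higher.

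Within the otic epithelium, cells with at least 2 UMIs of Otx1 and Otx2 together, of Rorb or of Rdh10 were compared with the remaining otic cells of the same library. They numbered 396, 498 and 640, then 196, 225 and 495, then 430, 464 and 588, and were deeper than the rest. Median UMIs were 24746 to 32629 for the Otx cells, 20466 to 30499 for the Rorb cells and 20067.5 to 30039.5 for the Rdh10 cells, against 17078 to 24148.5 outside them. The Otx cells had 18 members higher and 9 lower, in a contrast that called 29.5% of all genes, 15.4% higher and 14.2% lower. The Rorb cells had 9 higher and 8 lower, beside 16.7% of all genes, 7.49% higher and 9.21% lower. The Rdh10 cells had 14 higher and 7 lower, beside 48.1% of all genes, 24.2% higher and 23.9% lower. The member median was 0.13, -0.05 and 0.10, beside 0.01, 0.01 and -0.01 over all genes. Of the 9 erythroid markers, 9, 9 and 5 were lower in the Otx, Rorb and Rdh10 cells, and of the 9 neuronal markers 7, 4 and 6 were lower and 1, 2 and 1 higher. Of the 8 otic markers 7, 5 and 4 were lower and 1, 3 and 4 higher. The part of these markers in the results was not tested. With library totals in place of TMM scaling, the higher share of all calls in the Rdh10 contrast moved from 50.3% to 63.1%, with 14 members higher and 6 lower.

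The Otx cells were marked among the members by Dlk1 and Nnat. Dlk1 was at 22.8, 31.5 and 31.3 CPM in them and at 4.71, 5.46 and 6.31 in the other otic cells, a log2 fold change of 2.37 ± 0.08 (adjusted p 1.73e-08). The groups did not overlap. After thinning to 5000 UMIs, 6.57%, 12.05% and 9.87% of Otx cells had a Dlk1 UMI, against 2.60%, 2.67% and 2.59% of the others and 0%, 0.503% and 1.08% of endothelial cells, the class of lowest level. The 0 of 175 CD endothelial cells allows a share of cells with a UMI of up to 1.71%, counting error only. Unthinned, the shares were 24.5%, 31.1% and 23.9% against 8.68%, 10.4% and 8.75%, so the level rests on a minority of cells at this depth. Nnat was at 906, 1477 and 1952 CPM against 323, 414 and 422 (1.85 ± 0.10, adjusted p 4.29e-07). Every Otx library lay above every other-cell library for Nnat. Peg10 (1.06 ± 0.08) and H19 (0.77 ± 0.06) were higher as well. Rian, Peg3 and Peg13 were each higher by 0.56, and Zdbf2 by 0.50. Lower were Dcn (-1.60 ± 0.11), Trappc9 (-0.69 ± 0.06), Gnas (-0.53 ± 0.02), Mest (-0.15 ± 0.04, lost in 3 of 13 alternatives) and Ndn (-0.14 ± 0.04, lost in 5), and Plagl1, Phlda2, Zim1 and Slc22a18, which were all under 10 CPM.

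The Rorb cells stood apart by Dcn and by the noncoding RNAs Meg3 and Rian. Dcn was at 80.2, 16.8 and 57.2 CPM in them and 15.7, 4.10 and 10.6 outside (2.32 ± 0.08, adjusted p 1.87e-09). Each library showed the rise, and WT replicate 1 was lowest on both sides. Meg3 was at 77.8, 63.5 and 84.2 CPM in the Rorb cells and 185, 191 and 215 outside (-1.40 ± 0.06), and Rian at 14.2, 12.8 and 13.01 against 31.5, 35.1 and 31.7 (-1.30 ± 0.08). Neither RNA overlapped between the groups. Dlk1 (-1.43 ± 0.13), Mest (-0.72 ± 0.05), Peg3 (-0.67 ± 0.05) and Gnas (-0.51 ± 0.04) were lower too. Trappc9 (0.59 ± 0.07), Nnat (0.56 ± 0.11, lost with DESeq2 and with no library block) and Grb10 (0.51 ± 0.06) were higher. Unlike Meg3 and Rian, the noncoding RNAs H19 (0.20 ± 0.06, adjusted p 0.0458) and Kcnq1ot1 (0.17 ± 0.05, adjusted p 0.0368) were also higher.

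The Rdh10 cells had the opposite directions for Meg3 and Rian. Meg3 was at 409, 356 and 520 CPM in them and at 119, 124 and 126 outside (1.78 ± 0.08, adjusted p 1.13e-07), and Rian at 62.6, 60.8 and 68.2 against 22.1, 24.3 and 20.5 (1.52 ± 0.07). The groups were far apart in every library. Thinned to 5000 UMIs, 73.0%, 67.0% and 75.7% of Rdh10 cells had a Meg3 UMI, against 30.8%, 31.7% and 29.1% of the other otic cells. Unthinned, these were 91.9%, 91.4% and 92.2% against 56.2%, 57.2% and 49.4%. Gnas was at 3007, 2686 and 2960 CPM against 1654, 1536 and 1562 (0.86 ± 0.03). H19 was lower, at 214, 172 and 171 CPM against 393, 333 and 338 (-0.94 ± 0.04), as were Dcn (-1.78 ± 0.09), Nnat (-0.82 ± 0.03), Usp29 (-0.53 ± 0.12), Igf2 (-0.49 ± 0.06) and Grb10 (-0.38 ± 0.04). Dlk1, neighbour of Meg3, did not pass here (-0.04 ± 0.15, adjusted p 0.844). The noncoding RNA Kcnq1ot1 was higher (0.14 ± 0.03), as it was in the Rorb cells. The 5 surface ectoderm markers summed to 119 to 148 CPM in the Rdh10 cells against 43.2 to 57.7 in all otic cells. All otic cells include the Rdh10 cells and were scaled to other totals. Against the other otic cells, 1 of the 3 surface ectoderm markers tested was higher and 1 lower. The part of these markers in the differences was not tested. The subsets share cells and comparison cells, so their values are set side by side without a test between them.

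**Figure D3:**
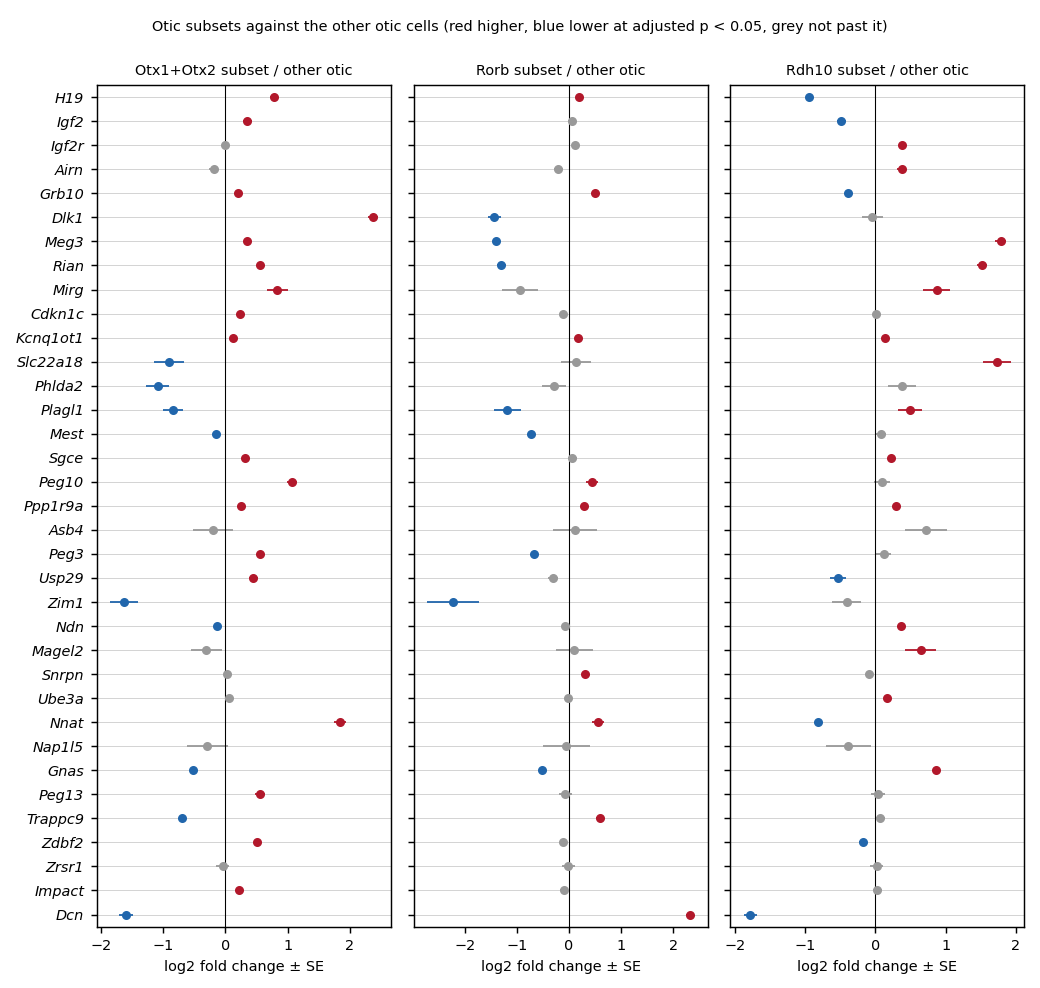
Log2 fold change of the imprinted genes in otic cells with Otx1 or Otx2, Rorb and Rdh10 UMIs against the other otic cells of the same libraries, with SE. Dlk1 and Nnat lead in the Otx cells, Dcn in the Rorb cells, and Meg3 and Rian are lower in the Rorb and higher in the Rdh10 cells.

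Cells with at least 2 UMIs of the proliferation genes Mki67 and Top2a were compared with cells that had 0. In otic epithelium 17 members were lower and 4 higher in the cycling cells, where 46.2% of all tested genes were called (22.7% lower, 23.5% higher). In mesenchyme 11 of 33 tested members were lower and 2 higher, where 18.4% of all genes were called (8.37% lower, 9.99% higher). Member medians were -0.18 and -0.26, beside -0.01 and -0.02 over all genes. With library totals in place of TMM, the higher share of all calls in otic cells went from 50.8% to 39.0%, with 3 members higher and 18 lower. Cycling cells were deeper, at median UMIs of 21034 to 27266 against 13092 to 16913.5 in otic epithelium and 17596 to 20741.5 against 10420 to 11063 in mesenchyme.

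In otic epithelium the largest of these differences were in noncoding RNAs and Gnas. Meg3 was at 144, 155 and 164 CPM in cycling cells and 385, 372 and 347 in non-cycling cells (-1.25 ± 0.05, adjusted p 4.16e-10). Gnas was at 1760, 1671 and 1631 against 3075, 2972 and 2718 (-0.79 ± 0.03). Neither overlapped. Rian (-0.99 ± 0.06), Dcn (-0.54 ± 0.15), Airn (-0.48 ± 0.11), Ndn (-0.44 ± 0.05) and Impact (-0.34 ± 0.08) were lower as well. Cdkn1c was lower by -0.27 ± 0.05, at 507, 824 and 794 CPM against 538, 1030 and 1047. Its groups overlapped, since the CD library was low on both sides. The 4 higher members were Zdbf2 (0.34 ± 0.05), Peg10 (0.30 ± 0.10), H19 (0.21 ± 0.04) and Grb10 (0.18 ± 0.04). After thinning to 5000 UMIs only Zdbf2 of these 4 was called (0.28), with H19 at 0.06 (adjusted p 0.38), Grb10 at 0.10 (0.107) and Peg10 at 0.41 (0.121). Over all 12 alternatives H19 went as low as 0.0031 and Peg10 lost its call in 7. Of the otic markers, 5 of 8 were lower and 2 higher in the cycling otic cells, and the 9 erythroid markers, the 5 macrophage markers tested and 5 of 8 mesenchymal markers were higher. The part of these cells and transcripts was not tested.

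In mesenchyme Cdkn1c led instead. It was at 534, 483 and 684 CPM in cycling cells and 846, 1312 and 951 in non-cycling cells (-0.84 ± 0.06, adjusted p 1.1e-31), with no overlap. Dlk1 (-0.70 ± 0.11), Peg10 (-0.54 ± 0.11), Igf2 (-0.50 ± 0.06), Gnas (-0.49 ± 0.05), H19 (-0.46 ± 0.06), Meg3 (-0.39 ± 0.06) and Nnat (-0.35 ± 0.06) were also lower. Peg3 ran the other way, at 602, 582 and 658 CPM against 360, 351 and 417 (0.71 ± 0.06), and so did its neighbour Usp29 (0.48 ± 0.14). The non-cycling mesenchyme held 177, 73 and 241 cells, and the median prior of this fit, 260.5 degrees of freedom beside 2 residual ones, means that its p-values rest mostly on the spread shared by all genes. Usp29 lost its call in 6 of 12 alternatives and Nnat in 3. In the cycling mesenchyme 9 of 9 erythroid markers (median log2 fold change 3.21) and the 3 macrophage markers tested were higher, and their part was not tested. Whether these differences differ between otic epithelium and mesenchyme was not tested. Of 7 tested cell cycle brakes outside the members, 4 were higher in cycling otic cells, among them the inhibitor gene Cdkn2c (3.11 ± 0.73) and the retinoblastoma relative Rbl1 (0.74 ± 0.10), and 1 was lower, Cdkn1a (-0.92). In mesenchyme 1 was higher, Cdkn2d (0.68), and 1 lower, Cdkn1a (-1.07). Beside these brakes and the factors given next, 23.5% of all tested genes were higher and 22.7% lower in cycling otic cells. In cycling mesenchyme 9.99% of all tested genes were higher and 8.37% lower. The maintenance methyltransferase Dnmt1 and its partner Uhrf1, which copy methylation at replication, were higher in cycling otic cells by 1.20 and 1.38, among 11 of 17 tested imprint maintenance factors that were higher and 2 that were lower. In mesenchyme 6 of 17 were higher and 1 lower, Dnmt1 by 0.58.

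**Figure D4:**
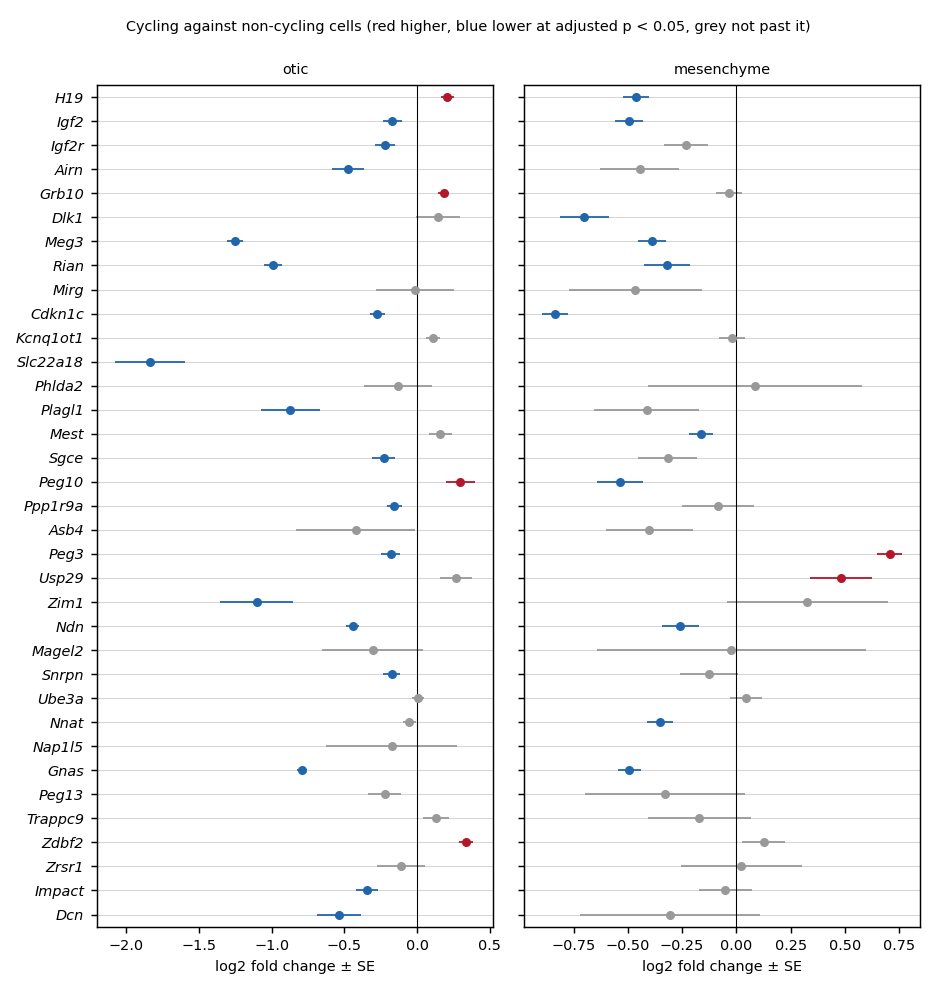
Log2 fold change of the imprinted genes in cycling against non-cycling cells of otic epithelium and mesenchyme, with SE. Meg3 has the lowest called value in otic epithelium among genes over 10 CPM and Cdkn1c in mesenchyme, and Peg3 is the highest in mesenchyme.

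Between the genotypes few imprinted genes passed. In otic epithelium edgeR called 0 of 35 members and 0.0767% of all genes, with 6 members at an unadjusted p under 0.05, and DESeq2 called 2, Cdkn1c and Nnat. In mesenchyme 0 of 35 were called (0% of all genes, 0 unadjusted, 0 by DESeq2) and in neurons 0 of 31 (0.00731%, 0 unadjusted, 0 by DESeq2). In endothelium 0 of 28 were called (0.386% of all genes, 4 unadjusted, 0 by DESeq2). The test has 1 residual degree of freedom, from the WT pair, and takes the lone CD library to vary like WT. In otic epithelium CD lay below both WT libraries for 15 members (29.4% of all genes) and above both for 13 (33.7%).

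Cdkn1c and Nnat had the smallest p-values in otic epithelium. Cdkn1c was at 460 CPM in CD and 749 and 746 in WT, a log2 fold change of -0.71 ± 0.13 (adjusted p 0.146, from 0.000495 to 0.216 over the alternatives). Nnat was at 395 CPM in CD and 631 and 696 in WT (-0.75 ± 0.14, adjusted p 0.141, from 0.000244 to 0.21 over the alternatives). The CD library was below both WT libraries for both. Dlk1 (-0.57 ± 0.21), Plagl1 (0.64 ± 0.23) and Phlda2 (0.66 ± 0.24) followed, each with an adjusted p of 0.879. Sox9 itself, the mutated gene, was at 627 CPM in CD otic cells against 380 and 322 in WT, and 3' counts do not separate the mutant allele. The summed level of the 8 otic markers was lower in CD, as given above with Oc90, but their median log2 fold change was 0.0015. The part of these markers in the values of Cdkn1c and Nnat was not tested.

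At the settings used here edgeR made its genotype calls among members in the Otx cells, where 2 members were higher and 2 lower in CD, beside 1.46% of all genes called, 0.652% higher and 0.812% lower. Nnat was at 906 CPM in CD and 1477 and 1952 in WT (-0.92 ± 0.13, adjusted p 1.35e-09). Cdkn1c was at 611 against 922 and 891 (-0.57 ± 0.13, adjusted p 0.00267), and H19 at 594 against 406 and 412 (0.54 ± 0.13, adjusted p 0.00481). The fit for these cells had 1 residual degree of freedom and an infinite prior at the median gene, against median prior degrees of freedom of 6.47 to 76.6 in the other genotype fits of single cell sets. The p-values of the Otx cells therefore rest on the spread shared by all genes and not on a spread estimated for each gene. Dcn, under 10 CPM and named after its values were seen, was at 9.89 against 2.39 and 5.46 (1.34 ± 0.28, adjusted p 0.000426). All 4 calls were lost when 1 Otx UMI defined the subset, and DESeq2 kept only Cdkn1c. Over the alternatives the adjusted p ran from 1.12e-11 to 0.926 for Nnat, from 0.00173 to 0.536 for Cdkn1c and from 0.00127 to 0.73 for H19. In the same cells 7 of 9 erythroid markers were higher in CD, at a sum of 1893 CPM against 442 and 574, and 3 of the 5 macrophage markers tested were lower, at 2.03 against 1.52 and 28.1. The otic markers, 3 of 8 lower, summed to 359 against 979 and 1718 CPM, and 2 of 5 markers of neural crest and glia and 1 of the 7 mesenchymal markers tested were lower. Their part in the calls was not tested.

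In the Rorb cells 0 of 32 tested members passed (0.0307% of all genes, 5 unadjusted, 1 by DESeq2), and in the Rdh10 cells 0 of 35 (0.0137%, 5 unadjusted, 1 by DESeq2). Cdkn1c had the smallest p in both, at 422 CPM in CD against 859 and 767 in the Rorb cells (-0.96 ± 0.18, adjusted p 0.156, from 6.58e-05 to 0.386 over the alternatives) and at 485 against 872 and 874 in the Rdh10 cells (-0.85 ± 0.16, adjusted p 0.345, from 0.000761 to 0.348). In endothelium Cdkn1c was at 308 against 378 and 569 CPM (-0.61 ± 0.17, adjusted p 0.0994, from 0.0379 to 1 over the alternatives). In these endothelial cells 9 of 9 erythroid markers were lower in CD and 4 of 6 macrophage markers higher, and their part was not tested. In neurons it was at 753 against 788 and 636, and in mesenchyme at 569 against 536 and 723, so CD lay between the WT libraries there. The test of the difference itself, class by genotype, called 0 of 35 members for mesenchyme against otic epithelium (0% of all genes, 7 unadjusted, 0 by DESeq2) and 0 of 35 for neurons against otic epithelium (0.0413%, 5 unadjusted, 1 by DESeq2). Cdkn1c had the smallest p in the latter, a difference in log2 fold change of 0.78 ± 0.15 (adjusted p 0.145, from 0.00202 to 1 over the alternatives). Among the IGF pathway genes outside the members, in the Otx cells Igfbp5 was higher in CD by 1.02 ± 0.13 and Igf1 lower by -1.82 ± 0.32. In endothelium Igfbp3 was lower in CD by -0.75 ± 0.19. The limits given above for the fit of the Otx cells hold for Igfbp5 and Igf1 as well. How these values move over the alternatives is not given.

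**Figure D5:**
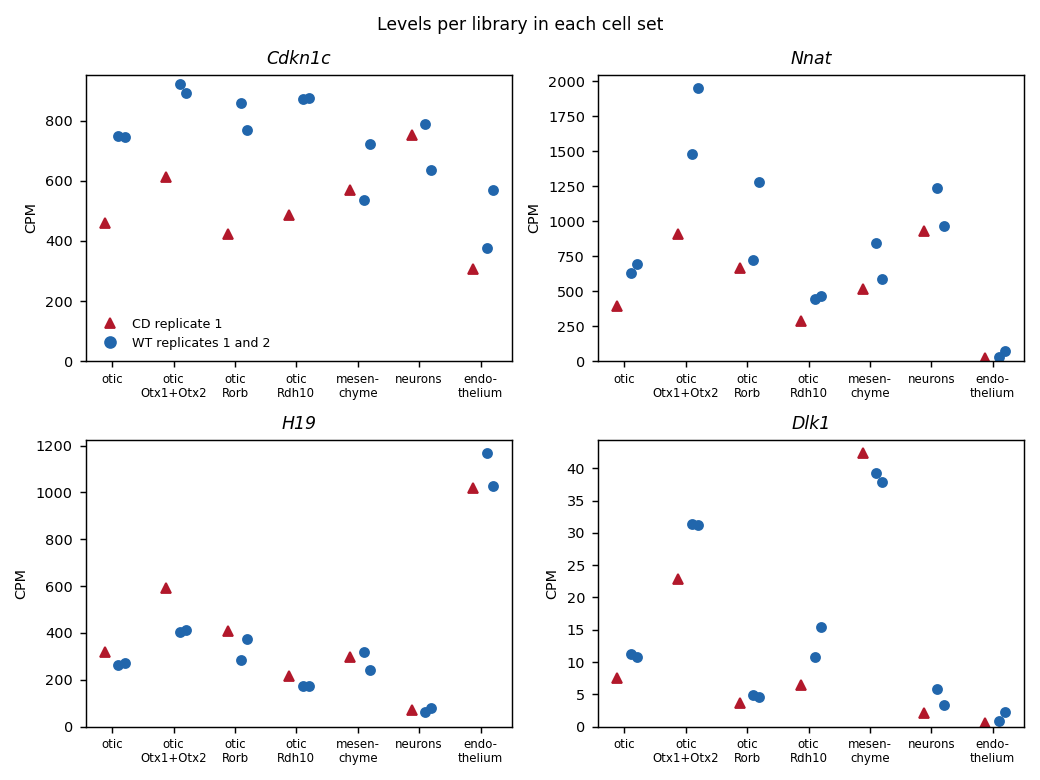
Level of imprinted genes in each library by class and otic subset, CD against the WT pair. Each set of cells is scaled to its own totals, so otic epithelium and its subsets are not on 1 scale. Of the genes shown, Nnat, Cdkn1c and Dlk1 lie below both WT libraries in otic epithelium and in the Otx, Rorb and Rdh10 cells. Nnat does so in the other classes as well. Peg3, Ndn and Impact, not shown, are also below both in these otic sets. In otic epithelium 29.4% of all genes lay below both, and no such share is given for the subsets.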

How the data were processed

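Per the labels' protocols, pooled E10.5 otic vesicles were dissociated and made into droplet libraries with a 3' kit. The authors deposited UMI counts per gene and barcode, made with Cell Ranger 6.0 per the submitters' processing notes (6.0.0 per the file headers) on build mm39. Whether intronic reads and strand were counted is not given in the sources used here.

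Cells needed at least 1000 genes and a mitochondrial share of UMIs of at most 10%. Scrublet calls (scanpy 1.11.5, expected rate 5%) and cells meeting more than 1 class gate were removed, and counts were summed per library and cell set. Gates needed 2 UMIs of their genes, with at least 1 of Epcam for otic cells and none for mesenchyme and neurons. Sums of at least 50 cells were tested with edgeR 4.0.16 in R 4.3.3 (TMM, filterByExpr, quasi-likelihood test, Benjamini-Hochberg over all genes, threshold 0.05). The library was a block in comparisons of cells within libraries. SE is derived from the fitted log2 value and its F statistic. DESeq2 1.42.0 was an alternative, and the script was tested on simulated data.

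Members and lists were chosen with earlier results of these data known. All members were accounted for. Up to 10 called members each way with at least 10 CPM were selected as named genes per comparison, or the 5 of smallest p. The text gives fold changes for only part of them, and for none in endothelium against mesenchyme. H19, Igf2, Dlk1, Meg3 and Cdkn1c were given in each class, and up to 3 genes per list. Members under 10 CPM were otherwise named after their values were seen. Shares of cells were also computed after thinning to 5000 UMIs, and they cover counting error only. Sequences were matched by symbol to the RefSeq tables.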

Additional observations from a re-analysis of the deposited data

How the results depend on the processing

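Alternatives were DESeq2, library totals without TMM, RLE size factors, no gene filter, the gates with doublets and multi-gate cells kept, at least 2000 genes, 4 gate UMIs, cells thinned to 5000 UMIs, subsets at 1 UMI, no library block, and each library left out. With no replicate block the members called stayed at 31 in endothelium and 27 in neurons against otic epithelium and went from 24 to 23 in mesenchyme. They fell to 13 in the Otx cells, 8 in the Rorb cells, 11 in the Rdh10 cells, 7 in cycling otic cells and 4 in cycling mesenchyme. DESeq2 called 13 and 8 in the last pair. No paired analysis was possible because the CD and WT groups share only the number 1, so genotype was fitted unpaired.

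Leaving out 1 library gave 22 to 26 members called for mesenchyme against otic epithelium, 23 to 30 for neurons, 29 to 30 for endothelium, 28 to 31 for endothelium against mesenchyme, 23 to 27 for the Otx cells, 15 to 19 for the Rorb cells, 20 to 20 for the Rdh10 cells, 15 to 21 for cycling otic cells and 8 to 10 for cycling mesenchyme, with 8 there without WT replicate 2. For the genotype it leaves 1 library a group and no test.

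For CD against WT the members called in otic epithelium went from 0 to 2 with DESeq2, 3 with no gene filter, 1 with 4 gate UMIs and 3 with thinning, always including Cdkn1c. In endothelium they were 2 with no filter and 1 with all gated cells kept. In the Otx cells the 4 became 1 with DESeq2, 1 with no filter, 2 with all gated cells kept and 0 with subsets at 1 UMI. In the Rorb cells they became 1 with DESeq2, 1 without TMM, 2 with no filter, 2 with 4 gate UMIs and 1 with thinning. In the Rdh10 cells they became 1 with DESeq2, 1 with no filter, 1 with all gated cells kept and 2 with thinning. The difference of the genotype effect between neurons and otic epithelium gave 1 with DESeq2, no filter, 4 gate UMIs or thinning. The cause was not tested. Calls over all genes moved as widely over the alternatives that keep all libraries, from 13 to between 6 and 253 in otic epithelium, 44 to between 7 and 56 in endothelium, 211 to between 1 and 217 in the Otx cells, 4 to between 1 and 98 in the Rorb cells, 2 to between 2 and 163 in the Rdh10 cells, 1 to between 0 and 55 in neurons and 0 to between 0 and 53 in mesenchyme. For class by genotype they went from 0 to at most 11 for mesenchyme and from 7 to between 0 and 53 for neurons. In the otic subsets and cycling cells the lowest counts were 1294 of 4473 for the Otx cells, 632 of 2535 for the Rorb cells, 3120 of 7338 for the Rdh10 cells, 4186 of 7010 for cycling otic cells and 728 of 2332 for cycling mesenchyme, each with no library block. In the 4 class contrasts thinning gave the lowest counts, 5512 of 8911 for endothelium against mesenchyme and, against otic epithelium, 6736 of 10457 for endothelium, 7045 of 9533 for mesenchyme and 6879 of 9825 for neurons.

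Igf2 in neurons against otic epithelium reversed to 0.75 with all gated cells kept. With thinning, Igf2 for CD against WT in neurons went to 0.0254 and Ppp1r9a in endothelium to -0.0241, neither called in either setting. Among named genes 2058 of the values under alternatives kept direction and call or, where no test was possible, stayed within the SE of the main value. A further 29 values without a test moved by more than that SE or changed sign. The call was lost for 127 values and gained for 25. H19, Grb10 and Peg10 in cycling otic cells lost theirs with thinning, and Ndn, Nnat and Usp29 in cycling mesenchyme under DESeq2. The 176 to 201 endothelial cells a library limit the precision of low members there.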
